A study of Mus musculus with 9 samples.

Results

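Cytosolic ribosomal proteins are the protein part of the ribosomes that translate nuclear-encoded mRNA. Members were chosen from the deposited table as the protein-coding genes whose symbol is Rpl or Rps followed by a digit, with Rplp0, Rplp1, Rplp2 and Rpsa added and the S6 kinases (symbols opening with Rps6k) left out. The rule took 94 of the 54532 genes in the table. Of the 94, 31 encode small subunit proteins, 43 encode large subunit proteins, 3 encode proteins of the stalk, 9 are paralogs or look-alikes, and 8 are protein-coding copies whose symbol carries "ps". The rule goes by symbol, so it also took Rps19bp1, a binding partner of Rps19 that is no ribosomal protein, and it missed genes such as Fau and Rack1, which encode ribosomal proteins under other symbols.

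Small subunit proteins hold and decode the mRNA, large subunit proteins surround the rRNA that forms peptide bonds and line the tunnel through which the new chain leaves, and the stalk proteins bring in elongation factors. The mRNAs of these genes are among the most abundant of any cell, hepatocytes included, and many open with a run of pyrimidines (the TOP motif) through which mTORC1 signalling sets their translation. Free Rpl5 and Rpl11 bind Mdm2, the ubiquitin ligase of p53, when ribosome assembly is disturbed.

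Whole livers of male C57BL/6 mice aged 5 to 7 weeks were sequenced as 9 libraries, 3 per group. NC mice were controls. The study reports an overnight fast for all animals ahead of APAP, without naming NC mice separately. APAP mice received acetaminophen, a drug that damages hepatocytes at high dose, at 500 mg/kg by intraperitoneal injection. Their livers were taken 6 h later. AMSC mice received the same APAP dose and, right after it, 200000 adipose-derived mesenchymal stem cells (AMSCs) grown from inguinal fat of C57BL/6 mice and given through the tail vein, with livers again taken at 6 h. APAP against NC asks what the drug changed, AMSC against APAP asks what the cells changed in injured liver, and AMSC against NC gives the distance that remained. AMSC libraries carry the replicate numbers 2, 3 and 4. Values below run over NC replicates 1, 2 and 3, APAP replicates 1, 2 and 3, and AMSC replicates 2, 3 and 4, in that sequence.

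Levels are FPKM, read counts divided by gene length and by a library total as scaled by the authors. Whole reads could be recovered from them, and gave 15444087, 14920463 and 15376434 reads on genes in NC, 14164875, 13640978 and 14167230 in APAP, and 16210930, 13418921 and 15259968 in AMSC. A single read on a gene of 1 kb was worth between 0.0578 and 0.0807 FPKM, and some tested members had few reads, such as Rpl27-ps3 with 10 in NC replicate 1 and Rpl10-ps3 with 10 in AMSC replicate 2. The libraries had the make-up of liver. Alb, the hepatocyte gene for serum albumin, stood at 29340.0, 27230.0 and 29650.0 FPKM in NC, 42000.0, 46610.0 and 45890.0 FPKM in APAP, and 31190.0, 33930.0 and 34420.0 FPKM in AMSC.

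Some libraries stood apart from the rest of their group over the ribosomal protein genes, and NC replicate 3 carries another day in its title than the other 8 libraries and is numbered 1 there, so that its number 3 comes from the description alone. APAP replicate 3 had the highest value of its group in 78 of the 84 members tested (92.9%, against 34.2% of all genes tested), and APAP replicate 1 had the lowest in 68 (81%, against 38.4%). AMSC replicate 2 was the highest of its group in 65 members (77.4%, against 29.6%) and AMSC replicate 3 the lowest in 71 (84.5%, against 37.1%). Within NC, replicate 1 was the lowest in 68 members (81%, against 27.5%). The results that follow are therefore given library by library, and with and without these libraries where they change.

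Members ran from 0 in every library to a mean of 1063 FPKM, under the most abundant genes of the table. Of the 94, 84 averaged 1 FPKM or more and entered the test with 9615 other genes. The median of the 84 members' means was 104.5 FPKM, beside 5.15 FPKM over all 9699 genes tested, and 44 members stood at 100 FPKM or more. Median gene length was 1730 bases for members and 3747 bases for all genes tested. The small subunit genes had a median of 130.2 FPKM over their 31 members, the large subunit genes 95.7 FPKM over 43, and the stalk genes 319 FPKM over 3. Paralogs and look-alikes (12.8 FPKM over 9) and the copies with a ps symbol (1.44 FPKM over 8) lay far lower.

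Rplp1, an acidic stalk protein, was the highest member, followed by Rpl36, a large subunit protein, and Rps3a1, a small subunit protein near the mRNA exit site. Rplp1 stood at 867, 935 and 1047 FPKM in NC, 943, 1125 and 1529 FPKM in APAP, and 1157, 861 and 1101 FPKM in AMSC. Rpl36 stood at 380.4, 437 and 423 FPKM in NC, 363, 569 and 772 FPKM in APAP, and 646, 423 and 520.1 FPKM in AMSC. Rps3a1 stood at 348, 368 and 409 FPKM in NC, 394, 431 and 585 FPKM in APAP, and 467, 402 and 467 FPKM in AMSC. Rplp1 lay above the other pair in every library, while Rpl36 and Rps3a1 overlapped. The 10 members under 1 FPKM included Rpl9-ps1, Rpl10l, Rpl36-ps4 and Rpl13a-ps1, which were listed at 0 in all 9 libraries, and Rpl10l is a copy known from testis. Rpl3l, the striated muscle form of Rpl3, had a mean of 0.0528 FPKM and Rpl39l, another testis form, 0.0184 FPKM. Only Rpl24 (0.850 FPKM) and Rps10 (0.668 FPKM) of the 77 subunit and stalk genes fell under 1 FPKM, and both are singled out after their values were seen.

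Ribosomal protein genes have left many processed copies in the genome. How reads that match several of these loci were counted is not given, so the level of a single gene is uncertain where near-identical copies exist. Of the 92 members with an annotated coding sequence, 80 had at least 1 other transcript at 95% identity or more over 80% of that sequence or more. The median was 4 such copies, the most was 55, for Rpl21, and 546 distinct copies were found. For 10 members, more reads lay on the copies than on the gene. Rps10, which is ubiquitinated when ribosomes stall, had 203 reads over the 9 libraries while its pseudogene Rps10-ps2 had 10140, at 114, 122 and 167 FPKM in NC, 163, 161 and 204 FPKM in APAP, and 155, 133 and 163 FPKM in AMSC. Rpl24, which bridges both subunits, had 117 reads beside 526 on its pseudogene Gm9385. All its copies together held 669 reads over the 9 libraries, while the subunit and stalk genes had a median of 2997 reads in a library. The levels of Rps10 and Rpl24 in the table are therefore uncertain. Exons of 28 members overlapped another gene on the same strand and those of 19 members overlapped a gene on the other strand. Whether the counting used strand is not given, so for those 19 the reads of both genes cannot be told apart. The largest such overlaps covered 66.2% of the exonic bases of Rpl35 and 59.7% of those of Rpl23a, both singled out after the overlaps were seen. On the same strand, Gm28037 overlapped 47.0% of the exonic bases of Rpl24 and RPS10-NUDT3 20.6% of those of Rps10. Other genes overlapped 35.4% of those of Rpl13a. These 3 are given for their low levels, and how reads on such shared bases were counted is not given.

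Taken as a family, the members moved together from library to library. For each library, the median over the 84 members of log2 level minus the NC mean was −0.10, 0.02 and 0.08 in NC, −0.04, 0.24 and 0.66 in APAP, and 0.38, −0.01 and 0.22 in AMSC. The same median over all genes tested stayed between −0.03 and 0.02 in every library. APAP replicate 3 stood highest, APAP replicate 1 lay within the NC range, and AMSC replicate 3 did too, so the groups overlapped. Each APAP library lay above the NC library of the same number (−0.04 against −0.10, 0.24 against 0.02 and 0.66 against 0.08) on this scale. No label pairs these mice, and whether they were paired is not known. TPM turns the median difference to −0.02 and moves all genes by −0.29. Group means of these medians were 0.00 ± 0.10 for NC, 0.29 ± 0.35 for APAP and 0.20 ± 0.19 for AMSC (SD, n = 3). The SD between replicates of a typical member was larger after APAP: its median over members was 0.115 in NC, 0.33 in APAP and 0.222 in AMSC on the log2 scale, beside 0.143, 0.195 and 0.15 over all genes tested. In 70 of the 84 members (83.3%) the highest of all 9 libraries was APAP replicate 3, which held that place in 14.2% of all genes tested.

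As a share of all expression, the family hardly moved between groups. Members made up 2.34%, 2.78% and 2.63% of the summed FPKM in NC, 2.20%, 2.37% and 3.13% in APAP, and 2.80%, 2.26% and 2.66% in AMSC. Group means were 2.59 ± 0.22%, 2.57 ± 0.49% and 2.57 ± 0.28% (SD, n = 3), so differences between groups were smaller than the spread within any of them. In reads, which are not divided by length, the shares were 1.56%, 1.82% and 1.83% in NC, 1.502%, 1.64% and 2.26% in APAP, and 1.96%, 1.52% and 1.82% in AMSC. Summed FPKM of members was 10047 ± 636 in NC, 12446 ± 2755 in APAP and 11623 ± 1578 in AMSC. The share and the sum differ because the deposited scale gives the groups unequal totals: all genes together summed to 366767 to 401861 FPKM in NC, 458808 to 495400 in APAP and 441409 to 468643 in AMSC. Bulk tissue cannot tell fewer cells with these mRNAs from less of them per cell.

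**Figure D1:**
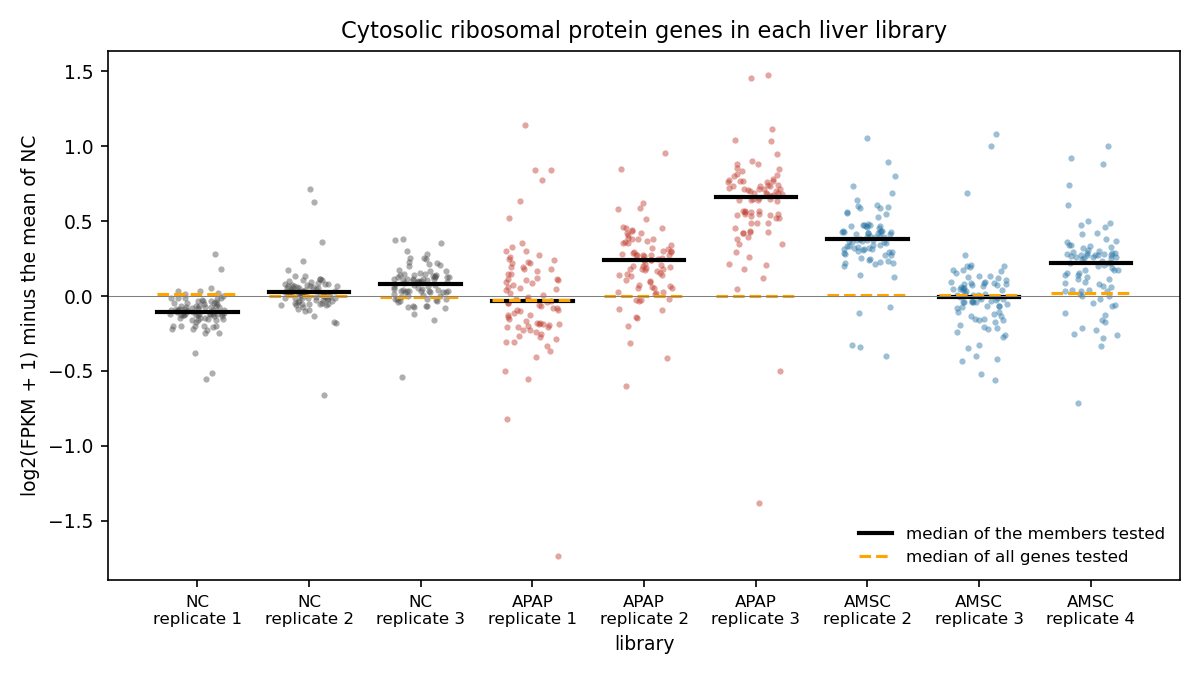
Ribosomal protein genes in each of the 9 libraries, as log2 level minus the NC mean on the deposited scale. Library medians run from −0.10 in NC replicate 1 to 0.66 in APAP replicate 3 and overlap between groups, and after rescaling to TPM the group medians stand at −0.02 for APAP against NC and 0.00 for AMSC against NC, or 0.27 and 0.18 above all genes.

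Other values moved with the same libraries. APAP replicate 3 also held more of short genes in general: among genes outside the family, its median log2 difference from the other APAP libraries was 0.305 for the 847 genes of up to 1000 bases and −0.244 for the 634 genes over 10000 bases. Members differed by 0.517 overall in that library, and by 0.455 to 0.581 in each length class that held any of them. AMSC replicate 2 had a smaller slope in the same direction, from 0.176 in the shortest genes to −0.133 in the longest, with a member median of 0.28. NC replicate 3 had a slope from 0.14 to −0.233 with a member median of only 0.125. The slope ran the other way in APAP replicate 1, from −0.29 to 0.184 with a member median of −0.418. It did so in AMSC replicate 3 (−0.11 to 0.151, members −0.297) and NC replicate 1 (−0.068 to 0.165, members −0.156). NC replicate 2 (−0.047 to 0.071, members 0.037) and APAP replicate 2 (0.0 to 0.063, members −0.095) had smaller ones, as had AMSC replicate 4 (−0.061 to −0.017, members 0.027). Summed FPKM of 12 macrophage markers, none at 0 throughout and C1qa the most abundant, was 140.2, 134 and 261 in NC, 354, 193 and 509.8 in APAP, and 188, 119 and 118 in AMSC. Summed FPKM of 7 erythroid genes, led by the globin gene Hbb-bs and none at 0 throughout, was 138, 135 and 254 in NC, 1073, 306 and 1406 in APAP, and 312, 183 and 234 in AMSC. Both sums peaked in APAP replicate 3, and APAP replicate 1, the lowest APAP library for most members, came next. Of the other cell-type sums, only that of hepatocyte genes peaked there as well. Over 10 neutrophil genes (Camp at 0 throughout, S100a9 the most abundant) the sum was 0.355, 0.448 and 1.94 FPKM in NC, 35.3, 7.85 and 16.6 in APAP, and 6.12, 6.24 and 4.72 in AMSC. Over 10 endothelial genes led by Eng it was 34.1, 41.7 and 69.2 in NC, 100.9, 38.8 and 62.5 in APAP, and 37.1, 34.3 and 36.6 in AMSC. Over 12 stromal genes led by Dcn it was 22.3, 26.9 and 40.55 in NC, 61.2, 28.5 and 56.3 in APAP, and 47.4, 28.9 and 34.3 in AMSC, and over 12 lymphocyte genes led by Ighm it was 1.73, 3.902 and 4.25 in NC, 7.19, 3.58 and 5.197 in APAP, and 5.12, 2.93 and 4.48 in AMSC. These lists peaked in APAP replicate 1. Over 5 cholangiocyte genes led by Spp1 the sum was 18.7, 39.6 and 18.7 in NC, 57.4, 97.3 and 86.7 in APAP, and 50.5, 27.3 and 28.5 in AMSC, with the peak in APAP replicate 2. Over 10 hepatocyte genes led by Alb it was 55146, 52439 and 56820.0 in NC, 68085, 76732 and 80763 in APAP, and 68072, 64683 and 67486 in AMSC, with the peak in APAP replicate 3. Of these 10, 3 rose and 1 fell after APAP (against 12.8% and 13.1% of all genes). The 1 was Cyp2e1, which fell by 2.31 (SE 0.51, limma adjusted p = 0.0147), from a mean of 3408 FPKM in NC to 846.7 FPKM in APAP. In AMSC against APAP, Cyp2e1 rose by 2.40 (SE 0.51, limma adjusted p = 0.0474). None of these lists but the neutrophil list had a gene at 0 throughout. Genes of the mitochondrial genome held 11.98%, 10.31% and 9.93% of the summed FPKM in NC, 13.58%, 13.05% and 9.37% in APAP, and 9.88%, 9.58% and 6.64% in AMSC, a share that fell within NC and within APAP where the member median rose. The part of gene length, of the mitochondrial share, of these cell types and of single libraries in the member values was not tested.

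Against NC, few ribosomal protein genes passed the test after APAP, and those that did were mostly listed as paralogs and copies rather than core subunits. Of these, Rpl9-ps6, Rps12-ps3 and Rps27rt have coding sequences near-identical to the core genes Rpl9, Rps12 and Rps27. Which locus their reads came from is uncertain. Passing means a limma adjusted p of 0.05 or less over all genes tested, and fold changes are on the scale of log2(FPKM + 1), which understates those of low genes. Of the 84 members, 4 rose (background 12.8% of all genes tested) and 2 fell (background 13.1%). Those that rose were Rpl22l1, Rpl9-ps6, Rps12-ps3 and Rpl10a, and those that fell were Rpl7l1 and Rps27rt. When the log2 fold change also had to reach 1 in size, none of the members rose by limma (background 5.09%; without that threshold 15 were higher at an unadjusted p under 0.05 and 7 by voom, and with it 1 by voom) and only Rps27rt fell (background 2.8%), a count that was 0 by limma without NC replicate 1, 2 or 3, APAP replicate 1 or APAP replicate 3, beside 1 by voom with all libraries in and 2 lower at an unadjusted p under 0.05 without the threshold. In this fit both shares of members, 4.76% and 2.38%, lay below those of all genes. Fitting the replicate numbers as blocks gave 16 higher (19.05%, above the 15.93% of all genes), with 7 small and 5 large subunit genes among them, and 2 lower. Leaving out NC replicate 1, 2 or 3 left 2, 1 and 2 higher, where 7.83%, 7.4% and 10.51% of all genes were higher. Leaving out APAP replicate 3 left 2 (10.74% of all genes). Leaving out APAP replicate 1, the lowest APAP library, gave 22 (26.2%, above the 14.7% of all genes). Members that fell numbered 1 in fits leaving out NC replicate 1, NC replicate 3, APAP replicate 1 or APAP replicate 3, and 0 by limma in that leaving out NC replicate 2, beside 2 lower at an unadjusted p under 0.05 and 2 by voom with all libraries in. With reads of near-identical copies added to each gene, chosen after seeing the data, Rpl10a and Rpl22l1 rose and Rpl7l1 fell by limma. These made 2.44% higher and 1.22% lower, against 13.05% and 13.45% of all genes.

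The sign of the family's median turned with the scaling, while its distance from all genes hardly moved under TPM. The median log2 fold change of the 84 members was 0.28 on the deposited scale, with 78 above 0 (92.9%, against 49.7% of all genes), but −0.02 with 36 above 0 after rescaling to TPM, and 0.08 with 58 above 0 after quantile normalization. Rescaling to TPM moved the median of all genes tested by −0.29 in this comparison, by 0.09 in AMSC against APAP and by −0.19 in AMSC against NC. Relative to the median of all genes, that of the members was 0.29, 0.27 and 0.13 on the deposited, TPM and quantile scales. The share of all calls that were higher was likewise 49.4% on the deposited scale, 20.2% after TPM and 42.6% after quantile normalization. Without APAP replicate 3 the deposited-scale median was 0.10 with 64 members above 0, and without APAP replicate 1 it was 0.42. In 23 members every APAP library lay above every NC library (background 20.9%) and in 2 below (background 22.3%), which is a share of members near that of all genes for the first and under it for the second.

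**Figure D2:**
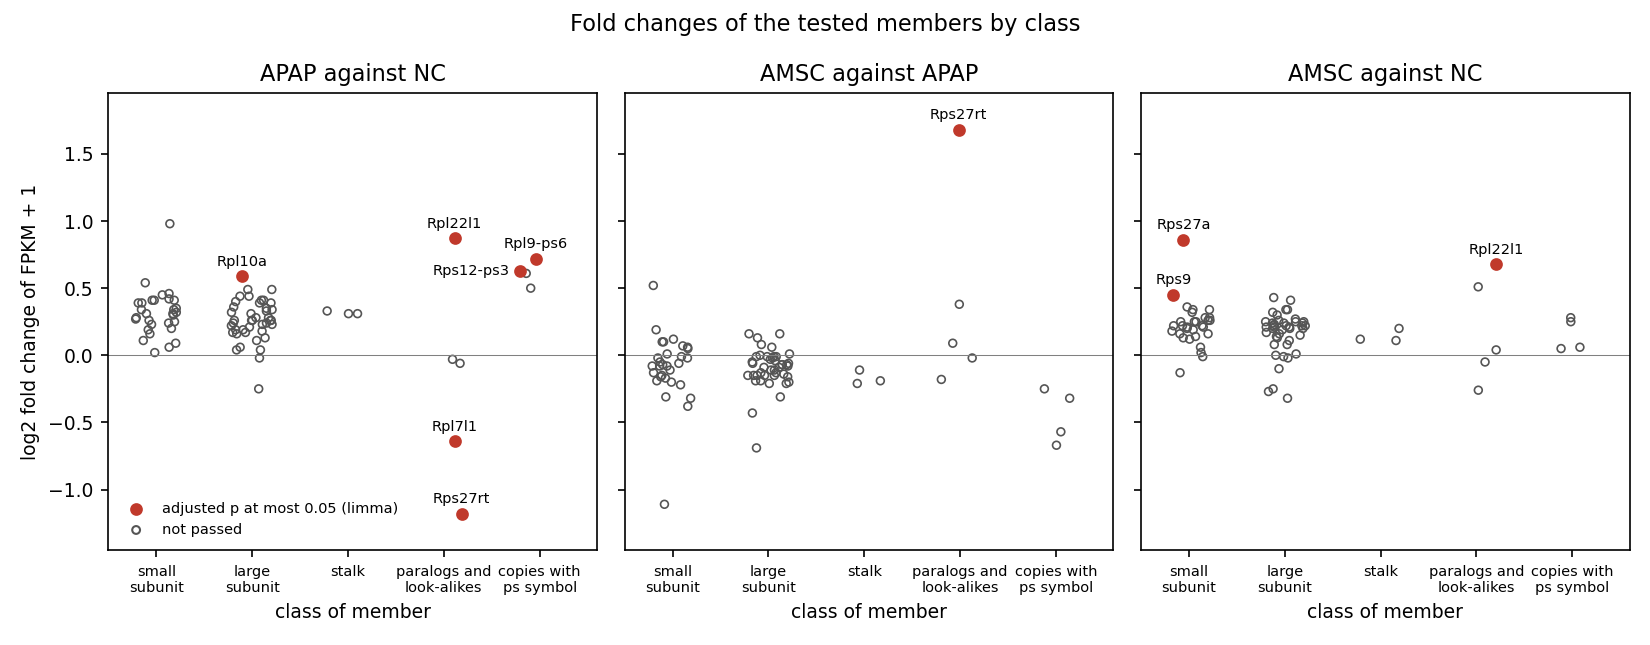
Log2 fold change of each tested member by class in the 3 comparisons, on the deposited scale; filled points passed the test. Class medians for APAP against NC are 0.31 for small subunit, 0.26 for large subunit and 0.31 for stalk genes, but the median over all members turns from 0.28 to −0.02 after rescaling to TPM, which moves that of all genes to −0.29, so that members lie 0.29 and 0.27 above all genes.

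Giving AMSCs after APAP left nearly all ribosomal protein genes without a call against APAP alone. Rps27rt was the 1 member that rose (background 1.64%), and no member fell by limma (background 2.14%), where 3 were lower at an unadjusted p under 0.05 and 1, Rps27, was lower by voom. Rps27rt also met the fold threshold (background 0.742%), and none of the members met it downward by limma (background 1.22%; 3 were lower at an unadjusted p under 0.05 without the threshold, and 1 by voom with it). Its call was lost without APAP replicate 1, APAP replicate 3 or any AMSC library, when the limma count of members that rose was 0. Groups did not overlap in 2 members upward, Rps27rt and Rpl7l1 (background 14.6%), and in 3 downward, Rps27, Rps12-ps3 and Rplp0 (background 12.4%). These shares lay below those of all genes. The median of the members was −0.08 on the deposited scale with 18 above 0 (21.4%, against 52% of all genes), 0.02 with 45 above 0 after TPM, and −0.04 after quantile normalization, or −0.10, −0.09 and −0.06 relative to all genes. It also turned with single libraries, to 0.09 with 61 above 0 without APAP replicate 3 and to 0.02 with 49 above 0 without AMSC replicate 3, and it was −0.23 without APAP replicate 1 and −0.17 without AMSC replicate 2. Of all calls, 43.3% were higher on the deposited scale, 58.7% after TPM and 42.5% after quantile normalization.

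AMSC livers against NC, a comparison that shares its controls with APAP against NC, had 3 members that rose (background 14.1%), namely Rps27a, Rpl22l1 and Rps9. None of the members fell by limma (background 11.9%), where 1 was lower at an unadjusted p under 0.05 and none by voom. None met the fold threshold in either direction by limma (background 3.92% higher and 2.09% lower), nor by voom, while without the threshold 13 were higher and 1 lower at an unadjusted p under 0.05 and 3 higher and 0 lower by voom. Leaving out AMSC replicate 2 put 1 member past it, upward. The count of 3 fell to 1 without NC replicate 1, NC replicate 2, AMSC replicate 2 or AMSC replicate 4 (10.14%, 9.62%, 10.92% and 10.05% of all genes). It rose to 10 without AMSC replicate 3 (11.9%, near the 12.97% of all genes). Every AMSC library exceeded every NC library in 14 members (background 23.2%) and lay under every NC library in 1, Rpl7l1 (background 20.3%). The members' median was 0.21 with 73 above 0 (86.9%, against 51.7% of all genes) on the deposited scale, 0.00 with 43 above 0 after TPM and 0.05 after quantile normalization, or 0.20, 0.18 and 0.08 relative to all genes. Without AMSC replicate 2 it was 0.10 with 62 above 0. Of all calls, 54.2% were higher on the deposited scale, 28.1% after TPM and 46.1% after quantile normalization.

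Small subunit genes showed the library pattern of the family. All 30 tested had a positive log2 fold change in APAP against NC, from 0.02 to 0.98 with a median of 0.31 on the deposited scale, where TPM moved the family median to −0.02 and that of all genes to −0.29, and none passed by limma (6 were higher at an unadjusted p under 0.05, 3 by voom, and 6 without APAP replicate 1). Between AMSC and APAP they ran from −1.11 to 0.52 around a median of −0.07, with 9 above 0, and in AMSC against NC it was 0.22, with 28 above 0 and 2 that passed (6.7%, against 14.1% of all genes). That count was 6 of the 30 without AMSC replicate 3 (12.97% of all genes) and 1 without each of the other libraries (NC replicates 1, 2 and 3, AMSC replicates 2 and 4). Rps6, the protein that the S6 kinases phosphorylate, stood at 179, 196 and 202 FPKM in NC, 218, 245 and 309.6 FPKM in APAP, and 235, 203 and 234 FPKM in AMSC. All APAP and AMSC values lay above all NC values, though its log2 fold changes of 0.41, −0.19 and 0.22 for the 3 comparisons (APAP against NC, AMSC against APAP, AMSC against NC) did not pass. Rps3, which sits where mRNA enters the subunit, stood at 61.6, 65.9 and 76.01 FPKM in NC, 75.97, 82.4 and 116 FPKM in APAP, and 86.96, 64.95 and 93.5 FPKM in AMSC. NC replicate 3 lay just above APAP replicate 1, so these groups overlapped, and its log2 fold changes were 0.41, −0.15 and 0.26, none of them passing. Without APAP replicate 1, Rps6 passed in APAP against NC at 0.52 (limma adjusted p = 0.0399, with 0.0399 to 0.716 over the alternatives). Rps3 passed there under replicate blocks at 0.41 (limma adjusted p = 0.0449, with 0.0449 to 0.666 over the alternatives).

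Rpsa, also known as the laminin receptor, stood at 143, 149.8 and 161 FPKM in NC, 181, 197 and 249 FPKM in APAP, and 195, 160.3 and 187 FPKM in AMSC. Each APAP value exceeded each NC value, with a log2 fold change of 0.45 (SE 0.15, limma adjusted p = 0.0621), above the threshold. Rps14, whose loss of a single copy impairs red cell formation, stood at 180.3, 182 and 207 FPKM in NC, 242, 229 and 323 FPKM in APAP, and 254, 201 and 268 FPKM in AMSC. It too separated APAP from NC without passing, at 0.46 (SE 0.16, limma adjusted p = 0.0723). Rps19, the gene most often mutated in Diamond-Blackfan anaemia, stood at 28.9, 34.98 and 29.2 FPKM in NC, 27.1, 38.1 and 51.2 FPKM in APAP, and 41.9, 30.1 and 35.7 FPKM in AMSC. Its APAP values spanned the whole NC range and more, and its log2 fold changes were 0.27, −0.08 and 0.20. Rps24, which had the largest log2 fold change among small subunit genes after Rps27 and is singled out after its values were seen, had 0.54 (SE 0.18, limma adjusted p = 0.0638). Under the replicate blocks of APAP and NC, Rps14, Rps24, Rps27, Rps3, Rps4x and Rpsa were among the small subunit genes that passed, all of them higher. Rpsa also passed after APAP without APAP replicate 1 (0.55, limma adjusted p = 0.0316), by voom and with all 9 libraries in a single fit, with 0.0316 to 0.449 over the alternatives. Rps14 passed in AMSC against NC without AMSC replicate 3 (0.46, limma adjusted p = 0.0328, with 0.0328 to 0.737 over the alternatives).

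Rps27a and Rps9 were the small subunit genes that passed, both in AMSC against NC. Rps27a, which is made as a fusion with ubiquitin and so also supplies ubiquitin, stood at 45.2, 41.99 and 47.3 FPKM in NC, 39.1, 61.7 and 75.7 FPKM in APAP, and 63.02, 96.1 and 90.6 FPKM in AMSC (chr11:29545846-29548109, minus strand, GRCm38). Its means were 44.8 ± 2.67, 58.8 ± 18.4 and 83.2 ± 17.7 FPKM (SD, n = 3), and all AMSC values lay above all NC values, whereas APAP values fell on both sides of NC. It rose in AMSC against NC by 0.86 (SE 0.16, limma adjusted p = 0.00713), higher in 3 of 3 AMSC libraries. That call held with each library left out in turn, with a log2 fold change of 0.74 to 1.04, and adjusted p ran from 0.00204 to 0.076 over all alternatives. Under replicate blocks and with all genes above 0 the call was lost. AMSC against APAP gave 0.52 (SE 0.26, limma adjusted p = 0.311) and APAP against NC 0.34 (SE 0.23, limma adjusted p = 0.315), neither passing, and whether the changes differ was tested only by AMSC against APAP. Without APAP replicate 1 it passed after APAP as well (0.60, limma adjusted p = 0.0192, with 0.0192 to 0.92 over the alternatives). Its near-identical copies, led by Gm8430, held 9.3% of the combined reads, and with them added it still passed at 0.78. Its exons overlap Clhc1 on the other strand over 8.1% of their bases.

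Rps9, which lies near the mRNA entry channel, stood at 106, 116 and 122 FPKM in NC, 116, 149.7 and 196 FPKM in APAP, and 169, 129 and 176 FPKM in AMSC. Means were 115 ± 8.17, 154 ± 39.9 and 158 ± 25.1 FPKM (SD, n = 3), with every AMSC value above every NC value and APAP replicate 1 inside the NC range. It rose in AMSC against NC by 0.45 (SE 0.14, limma adjusted p = 0.0488). Leaving out any NC library, AMSC replicate 2 or AMSC replicate 4 ended the call (adjusted p 0.0632 to 0.156 by limma), and of these fits only that leaving out AMSC replicate 3 kept it, while all alternatives together ran from 0.0116 to 0.585. Rps9 also lost the call after TPM, after quantile normalization, under replicate blocks and without trend. So it did with all genes above 0 and with all 9 libraries in a single fit. Over the alternatives Rps9 had a log2 fold change of 0.239 to 0.586. In APAP against NC its log2 fold change was 0.39, which passed only without APAP replicate 1 (0.57, limma adjusted p = 0.0333, with 0.0333 to 0.746 over the alternatives). Near-identical copies held 0.2% of its combined reads. Rps13, among the members with the largest positive values in AMSC against APAP, had 0.19 there, with 0.09 in APAP against NC and 0.28 in AMSC against NC, none passing.

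Large subunit genes were alike in median and narrower in range. Of 42 tested, 40 were above 0 in APAP against NC on the deposited scale (TPM moved the family median to −0.02 and that of all genes to −0.29), with a median of 0.26 from −0.25 to 0.59, and Rpl10a alone passed (12.8% of all genes rose), against 12 without APAP replicate 1 (14.7% of all genes), 5 under replicate blocks (15.93%) and 0 without NC replicate 1, 2 or 3, APAP replicate 2 or APAP replicate 3. Against APAP, the AMSC values of 6 genes were above 0 around a median of −0.08, and in AMSC against NC 35 were above 0 around 0.21, with none passing by limma (6 higher at an unadjusted p under 0.05 and 0 by voom). Without AMSC replicate 3 that last count was 3 (12.97% of all genes), and without NC replicate 3 it was 1 (12.8% of all genes). Rpl10a, the protein of the L1 stalk through which spent tRNA leaves, stood at 71.5, 82.5 and 94.6 FPKM in NC, 101.5, 124 and 153 FPKM in APAP, and 126, 94.7 and 115 FPKM in AMSC (chr17:28328471-28331033, plus strand, GRCm38). Means were 82.9 ± 11.5, 126 ± 25.7 and 112 ± 15.9 FPKM (SD, n = 3), and APAP and AMSC values lay above all NC values. It rose after APAP by 0.59 (SE 0.18, limma adjusted p = 0.0487), higher in 3 of 3 APAP libraries. The call was lost without NC replicate 1, 2 or 3 (adjusted p 0.171, 0.13 and 0.0542), without APAP replicate 2 (0.118) and without APAP replicate 3 (0.112), in limma fits whose adjusted p over all alternatives ran from 0.0129 to 0.214. Rpl10a also lost the call after TPM, after quantile normalization, with a minimum mean of 5 FPKM and with all genes above 0. Its log2 fold change ran from 0.283 to 0.737 over the alternatives. In AMSC against NC it had 0.43 (SE 0.15, limma adjusted p = 0.0691), and passed without NC replicate 3 (0.53, limma adjusted p = 0.0453) or AMSC replicate 3 (0.54, limma adjusted p = 0.0351), with 0.0351 to 0.607 over the alternatives. Copies held 3.4% of its combined reads.

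Rpl5 and Rpl11 travel with the 5S rRNA and bind Mdm2 when free, and Rpl23 binds Mdm2 as well. Rpl5 stood at 61.8, 61.3 and 68.3 FPKM in NC, 74.4, 79.8 and 103 FPKM in APAP, and 85.9, 69.7 and 76.9 FPKM in AMSC. Every APAP and AMSC value exceeded every NC value, and log2 fold changes of 0.41, −0.14 and 0.27 did not pass. Rpl11 stood at 87.3, 92.6 and 87.7 FPKM in NC, 70.4, 87.9 and 125 FPKM in APAP, and 108, 86.9 and 115 FPKM in AMSC. APAP replicate 1 was its lowest library and APAP replicate 3 its highest, and log2 fold changes were 0.04, 0.16 and 0.20. Rpl23 stood at 79.1, 84.5 and 79.9 FPKM in NC, 65.2, 100.3 and 119 FPKM in APAP, and 109.8, 85.5 and 84.5 FPKM in AMSC, with the same pair of APAP libraries at both ends and log2 fold changes of 0.18, 0.01 and 0.19. In APAP against NC without APAP replicate 1, Rpl5 passed at 0.51 (limma adjusted p = 0.0443) and Rpl23 at 0.42 (limma adjusted p = 0.0474), and under replicate blocks Rpl5 passed at 0.41 (limma adjusted p = 0.0431), with 0.0431 to 0.588 for Rpl5 and 0.0474 to 0.992 for Rpl23 over the alternatives. The pseudogene Gm9794, at 99.76% identity, held 24.1% to 28.6% of the reads of the pair by library.

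Mdm2 itself stood at 5.41, 4.79 and 4.54 FPKM in NC, 27.1, 49.5 and 33.6 FPKM in APAP, and 18.2, 16.4 and 16.1 FPKM in AMSC. It rose by 2.63 (SE 0.21, limma adjusted p = 0.000233) after APAP, fell by 1.04 (SE 0.21, limma adjusted p = 0.042) in AMSC against APAP, and stood 1.60 above NC in AMSC (SE 0.11, limma adjusted p = 4.84e-05). The groups did not overlap in any of the 3 comparisons. The call in AMSC against APAP was lost without APAP replicate 3 or any of the AMSC libraries, with adjusted p of 0.1, 0.0987, 0.144 and 0.139 for APAP replicate 3 and AMSC replicates 2, 3 and 4 and a range of 0.0102 to 0.179 over all alternatives. The other calls of Mdm2 held without each library, at 1.44e-05 to 0.0109 and 1.4e-05 to 0.00314 over the alternatives. Cdkn1a, a target of p53, rose by 5.58 (SE 0.22, limma adjusted p = 1.41e-05) after APAP, while Trp53, the gene of p53, fell by 0.43 (SE 0.11, limma adjusted p = 0.0291), a call lost without NC replicates 1, 2 and 3 (0.0967, 0.0892 and 0.0732) and APAP replicates 1 and 2 (0.0546 and 0.0592), over alternatives from 0.00373 to 0.0967. For Cdkn1a the alternatives ran from 1.06e-06 to 0.00322, and it did not fall with Mdm2 in AMSC against APAP (0.05, limma adjusted p = 0.947), where its means were 62.97 ± 19.4 FPKM in APAP and 64.9 ± 18.4 FPKM in AMSC (SD, n = 3). With all libraries in and no blocks, Rpl5, Rpl11 and Rpl23 passed in none of the 3 comparisons and Mdm2 in all 3, but in APAP against NC Rpl5 and Rpl23 passed without APAP replicate 1 (limma adjusted p of 0.0443 and 0.0474), and Rpl5 under replicate blocks, as given above.

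Rpl10, which joins the large subunit last and completes it, stood at 196, 212 and 211 FPKM in NC, 212, 235 and 305 FPKM in APAP, and 245, 207 and 238 FPKM in AMSC. APAP values began just above the highest NC value, and log2 fold changes were 0.26, −0.11 and 0.15. Rpl13a, which also leaves the ribosome to silence mRNAs of inflammation, stood at 4.54, 4.70 and 6.02 FPKM in NC, 4.02, 5.80 and 6.02 FPKM in APAP, and 5.60, 4.51 and 4.97 FPKM in AMSC. Groups overlapped throughout, with log2 fold changes of 0.04, −0.05 and −0.01. Other genes on the same strand overlap 35.4% of the exonic bases of Rpl13a, so its level is uncertain. Rpl36 had 0.39, −0.06 and 0.34, none passing, and its levels are given above. Rpl36 passed after APAP without APAP replicate 1 (0.68, limma adjusted p = 0.0253, with 0.0253 to 0.803 over the alternatives) and in AMSC against NC without AMSC replicate 3 (0.49, limma adjusted p = 0.0478, with 0.0478 to 0.655).

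The large subunit genes with the most negative values were Rpl17 in APAP against NC, Rpl21 and Rpl23a in AMSC against APAP, and all of these in AMSC against NC. In APAP against NC only 2 of the 42 tested were below 0. There Rpl23a had a higher mean in APAP (114 FPKM) than in NC (101 FPKM). Rpl17, at the exit of the peptide tunnel, stood at 83.6, 137 and 60.5 FPKM in NC, 59.9, 71.2 and 96.6 FPKM in APAP, and 82.1, 59.7 and 72.9 FPKM in AMSC. NC replicate 2 was far above all other libraries, and log2 fold changes were −0.25, −0.07 and −0.32, none passing. Its pseudogene Rpl17-ps10, identical over 99.28% of 552 bases, held 48.3%, 24.7% and 66.5% of the pair's reads in NC, 72.3%, 66.2% and 63% in APAP, and 65.1%, 68.2% and 62.2% in AMSC. Added up at a common length of 1 kb, the pair had 136 ± 8.96, 178 ± 21.3 and 159 ± 20.47 FPKM in NC, APAP and AMSC (SD, n = 3), so the low share on the pseudogene in NC replicate 2 matched the high value of Rpl17 there.

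Rpl21 stood at 5.39, 14.4 and 7.42 FPKM in NC, 7.24, 8.76 and 24.8 FPKM in APAP, and 9.91, 6.86 and 4.74 FPKM in AMSC, with NC replicate 2 and APAP replicate 3 standing apart. In those libraries its protein-coding copy BC004004 held 54.4% and 46% of the pair's reads, against 66.5% to 80.5% in the other 7 libraries. Rpl23a, which meets the signal recognition particle at the tunnel exit, stood at 96.4, 105 and 101.3 FPKM in NC, 115, 91.6 and 136 FPKM in APAP, and 80.1, 70.1 and 104 FPKM in AMSC. Its log2 fold changes of −0.43 in AMSC against APAP and −0.27 in AMSC against NC did not pass, and Tlcd1 covers 59.7% of its exonic bases from the other strand. Rpl21 had −0.69 and −0.25 in the same comparisons, with limma adjusted p = 0.413 for the former.

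The 3 stalk genes followed the family. Rplp0, the base of the stalk, stood at 266, 280.1 and 315 FPKM in NC, 340.4, 338 and 402 FPKM in APAP, and 329.7, 299 and 302 FPKM in AMSC. Its APAP values lay above all NC and all AMSC values, and its log2 fold change after APAP was 0.33 (SE 0.14, limma adjusted p = 0.116), followed by −0.21 in AMSC against APAP. Rplp1, given above, had 0.31, −0.19 and 0.12. Rplp2, its partner, stood at 64.6, 71.6 and 81.01 FPKM in NC, 60.8, 94.4 and 125 FPKM in APAP, and 96.6, 68.1 and 85.99 FPKM in AMSC, where APAP replicate 1 was the lowest and APAP replicate 3 the highest of all libraries. Rplp2 had log2 fold changes of 0.31, −0.11 and 0.20. None of the 3 passed in any comparison by limma: 1 was higher at an unadjusted p under 0.05 in APAP against NC and none in the other comparisons, and none passed by voom. Without APAP replicate 1, Rplp2 passed in APAP against NC (0.58, limma adjusted p = 0.0414, with 0.0414 to 1 over the alternatives), which made the count 1.

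Paralogs and look-alikes held 3 of the 6 calls of the family after APAP, from 5 genes tested. Of these 1 rose (against 12.8% of all genes) and 2 fell (against 13.1%), and the 2 were 1 without NC replicate 1, NC replicate 3, APAP replicate 1 or APAP replicate 3 and 0 by limma without NC replicate 2. Rpl22l1, the paralog of Rpl22 that also binds pre-mRNA, stood at 8.26, 9.42 and 11.4 FPKM in NC, 15.5, 18.1 and 22.03 FPKM in APAP, and 18.7, 11.8 and 18.6 FPKM in AMSC (chr3:28805436-28807424, plus strand, GRCm38). Means were 9.70 ± 1.60, 18.5 ± 3.30 and 16.4 ± 3.94 FPKM (SD, n = 3), all APAP and AMSC values lay above all NC values, and APAP and AMSC overlapped. It rose after APAP by 0.87 (SE 0.17, limma adjusted p = 0.00926), higher in 3 of 3 libraries. That call held with each library left out in turn, at 0.74 to 0.98, and adjusted p ran from 0.0043 to 0.0505 over all alternatives. In AMSC against NC it rose by 0.68 (SE 0.19, limma adjusted p = 0.0326), a call lost without NC replicate 1 (0.58, adjusted p 0.108), NC replicate 2 (0.67, 0.0879), AMSC replicate 2 (0.58, 0.104) or AMSC replicate 4 (0.58, 0.111) in the same limma test, whose alternatives ran from 0.00559 to 0.351. AMSC against APAP gave −0.18, which did not pass. Copies held 2.4% of its combined reads, and Gm33051 overlaps 8% of its exonic bases from the other strand. In APAP against NC, Rpl22l1 rose on the TPM scale too, by 0.60, and lost the call only with all genes above 0. Its call in AMSC against NC was lost after TPM, under replicate blocks and with all genes above 0.

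Rpl7l1, a nucleolar paralog of Rpl7 that works in large subunit assembly, went the other way. It stood at 25.2, 27.001 and 24.2 FPKM in NC, 13.99, 16.4 and 17.7 FPKM in APAP, and 19.9, 22.1 and 21.2 FPKM in AMSC (chr17:46773907-46782672, minus strand, GRCm38). Means were 25.5 ± 1.40, 16.03 ± 1.87 and 21.1 ± 1.12 FPKM (SD, n = 3), and the groups were fully separate, with APAP lowest, AMSC between and NC highest. After APAP it fell by 0.64 (SE 0.13, limma adjusted p = 0.00976), lower in 3 of 3 libraries. The call was lost only without NC replicate 2, at −0.60 and an adjusted p of 0.0505, the highest over all its alternatives, which began at 0.00173. In AMSC against APAP its log2 fold change of 0.38 (SE 0.13, limma adjusted p = 0.151) did not pass, nor did that of −0.26 (SE 0.10, limma adjusted p = 0.0894) in AMSC against NC, which passed as lower after TPM and after quantile normalization. Copies held 0.2% of its combined reads, and no gene overlaps its exons.

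The remaining look-alikes did not pass. Rps27l, a p53-induced paralog of Rps27, stood at 175, 161 and 168 FPKM in NC, 144, 152 and 206 FPKM in APAP, and 199, 144 and 151 FPKM in AMSC, overlapping in all comparisons, with log2 fold changes of −0.03, −0.02 and −0.05. Rps19bp1 stood at 12.1, 12.2 and 14.002 FPKM in NC, 11.2, 10.95 and 14.8 FPKM in APAP, and 15.6, 9.80 and 14.6 FPKM in AMSC, with log2 fold changes of −0.06, 0.09 and 0.04. Rpl36al, an intronless copy of Rpl36a, stood at 1.64, 0.769 and 1.12 FPKM in NC, 0.661, 1.25 and 1.37 FPKM in APAP, and 0.651, 0.455 and 0.738 FPKM in AMSC, under the limit for testing.

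**Figure D3:**
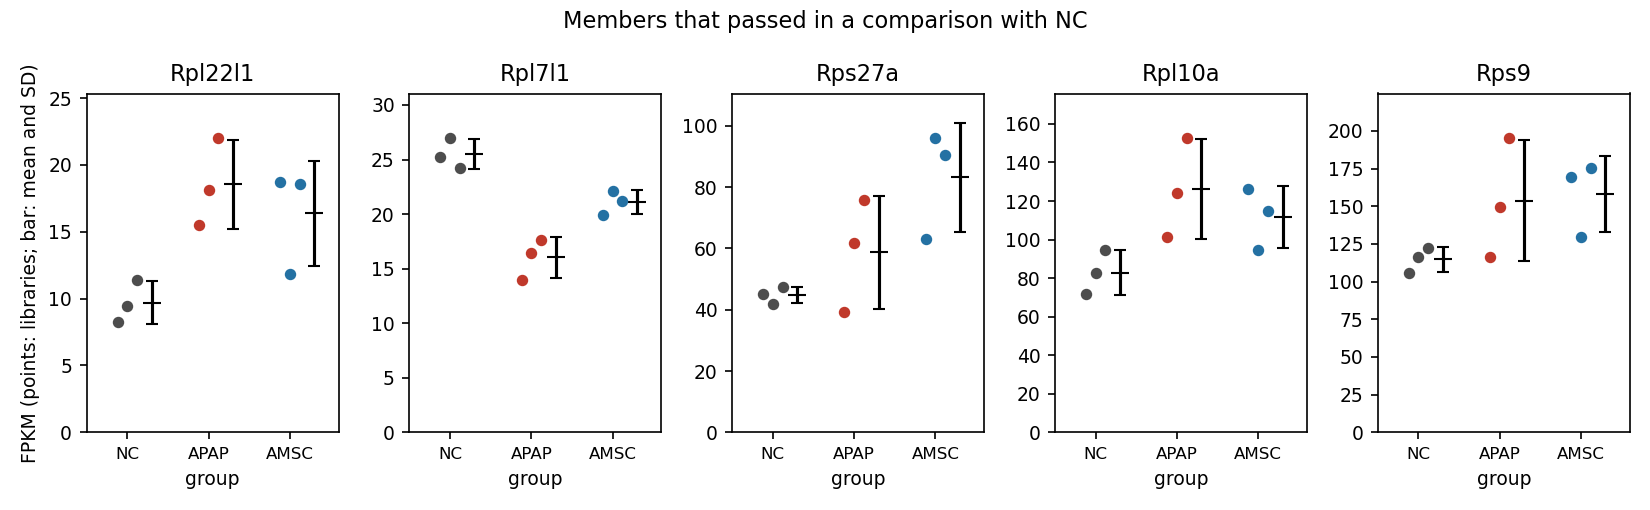
FPKM of 5 members that passed in at least 1 comparison (Rpl22l1, Rpl7l1, Rps27a, Rpl10a and Rps9); points are libraries, bars group mean and SD. Rpl7l1 runs from 24.2 to 27.001 FPKM in NC, 13.99 to 17.7 in APAP and 19.9 to 22.1 in AMSC, the 1 member shown whose 3 groups are fully separate.

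Rps27rt had the largest fold changes of the family in APAP against NC and in AMSC against APAP, and they cannot be read apart from those of Rps27. Rps27 encodes a zinc-finger protein of the small subunit, and Rps27rt is an intronless copy whose coding sequence of 252 bases is 100% identical. Rps27rt stood at 139, 233 and 185 FPKM in NC, 53.8, 136 and 69.03 FPKM in APAP, and 379, 209 and 218 FPKM in AMSC (chr9:114982366-114982739, minus strand, GRCm38). Rps27 stood at 77.7, 39.97 and 83.4 FPKM in NC, 115, 98.6 and 179.6 FPKM in APAP, and 77.5, 50.7 and 50.5 FPKM in AMSC (chr3:90212522-90213651, minus strand). Where one was high the other tended to be low: APAP libraries were the highest for Rps27 and the lowest for Rps27rt.

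By the test, Rps27rt fell after APAP by 1.18 (SE 0.34, limma adjusted p = 0.0399) and rose in AMSC against APAP by 1.68 (SE 0.36, limma adjusted p = 0.0492). Both calls were lost in all but 1 of the fits that left out a library, the one without APAP replicate 2. For APAP against NC the limma adjusted p was 0.0525, 0.132 and 0.0937 without NC replicates 1, 2 and 3, 0.0793 without APAP replicate 1 and 0.105 without APAP replicate 3, with 0.00805 to 0.171 over all alternatives. For AMSC against APAP it was 0.0824 and 0.135 without APAP replicates 1 and 3 and 0.124, 0.121 and 0.123 without AMSC replicates 2, 3 and 4, with 0.00128 to 0.223 over all alternatives. Rps27 had 0.98 (SE 0.32, limma adjusted p = 0.0589) after APAP and −1.11 (SE 0.26, limma adjusted p = 0.0601) in AMSC against APAP, just short of passing both times. Rps27 passed after APAP by voom, under replicate blocks, with protein-coding genes only and with all 9 libraries in a single fit, and against APAP in AMSC by voom, after quantile normalization and with protein-coding genes only. In AMSC against NC, Rps27rt had 0.51 and Rps27 −0.13, neither passing.

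Added up, the reads of the pair overlapped between all groups. The sums were 2221, 2228 and 2687 reads in NC, 1885, 1906 and 2864 in APAP, and 3534, 1701 and 2015 in AMSC. Of these, Rps27rt held 39.1%, 67.6% and 44.3% in NC, 14.3%, 33.2% and 12.1% in APAP, and 63.7%, 59.6% and 60.7% in AMSC. The sum at a common length of 1 kb was 139 ± 14.7 FPKM in NC, 169 ± 38.6 in APAP and 162 ± 52.1 in AMSC (SD, n = 3), with overlapping groups. The division of reads differed between APAP and AMSC while the totals overlapped, and which copy the RNA came from is uncertain. With the reads of near-identical copies added to each gene, an alternative chosen after seeing the data, no member met the fold threshold and none passed in AMSC against APAP by limma, where 1 was past an unadjusted p of 0.05.

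**Figure D4:**
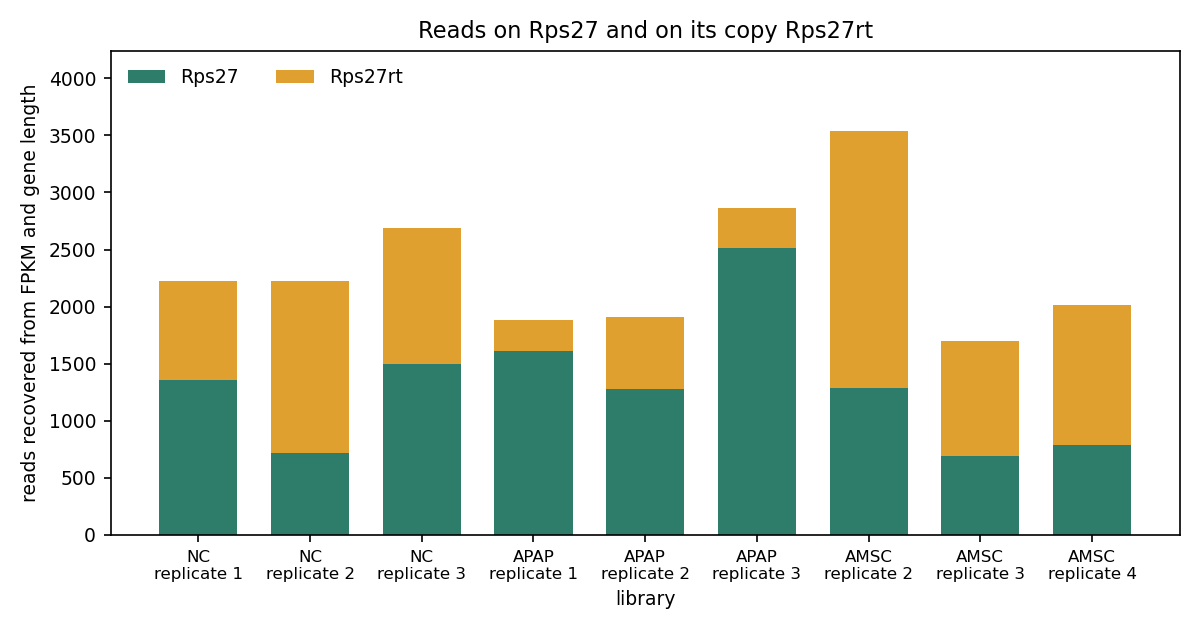
Reads on Rps27 and on its copy Rps27rt in each library. Rps27rt holds 12.1% to 33.2% of the pair's reads in APAP and 59.6% to 63.7% in AMSC, while their summed reads overlap between all groups.

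Starts of both loci are shown because they mark what the loci share outside the coding sequence. Both windows run from 30 bases before to 30 bases after the RefSeq start (GRCm38.p6), 5′ to 3′, and capitals mark the run of 29 bases common to both just after the start, which promoters of 3 of 27025 genes hold on either strand, the third being Rab13. The run reaches the last base of the Rps27 window, so the shared stretch may be longer than 29 bases. Bases before the run differ, so the copy holds the transcribed start of Rps27 and other sequence upstream. Rps27 lies at chr3:90213619-90213678 and Rps27rt at chr9:114982710-114982769, both on the minus strand.
Rps27: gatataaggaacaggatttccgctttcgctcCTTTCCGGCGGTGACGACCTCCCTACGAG
Rps27rt: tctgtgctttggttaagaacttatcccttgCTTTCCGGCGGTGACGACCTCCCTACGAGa

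Protein-coding copies with a ps symbol numbered 8, of which 4 were tested and 2 rose after APAP (against 12.8% of all genes). Rps12-ps3 stood at 89.5, 95.5 and 134 FPKM in NC, 180.2, 137 and 173 FPKM in APAP, and 129, 96.4 and 105 FPKM in AMSC. Means were 106 ± 24.2, 163 ± 23.04 and 110.0 ± 16.8 FPKM (SD, n = 3), with all APAP values above all NC and AMSC values. It rose after APAP by 0.63 (SE 0.19, limma adjusted p = 0.0464), a call kept only without NC replicate 3 among the fits that left out a library: adjusted p was 0.162 and 0.149 without NC replicates 1 and 2, and 0.0897, 0.0527 and 0.108 without APAP replicates 1, 2 and 3, with 0.0208 to 0.215 over all alternatives. Rps12-ps3 also lost the call after TPM, after quantile normalization and with all genes above 0. With copies added, its reads counted to Rps12, which did not pass after APAP by limma. Its log2 fold change ran from 0.318 to 0.803 over the alternatives. All 396 bases of its coding sequence match Rps12, a protein at the beak of the small subunit, without a mismatch. Rps12 stood at 39.4, 40.5 and 39.2 FPKM in NC, 43.2, 41.6 and 82.3 FPKM in APAP, and 55.2, 33.4 and 67.1 FPKM in AMSC. The pair at a common 1 kb had 133 ± 11.3, 194 ± 52.1 and 159 ± 38.8 FPKM in NC, APAP and AMSC (SD, n = 3). Rps12 passed only in AMSC against NC without AMSC replicate 3 (0.60, limma adjusted p = 0.0124, with 0.0124 to 0.892 over the alternatives). Against APAP, the AMSC libraries gave Rps12-ps3 −0.57 (SE 0.17, limma adjusted p = 0.112).

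Rpl9-ps6 stood at 14.2, 10.9 and 12.4 FPKM in NC, 18.3, 19.2 and 26.7 FPKM in APAP, and 19.2, 10.9 and 10.2 FPKM in AMSC. All APAP values lay above all NC values, and AMSC replicate 2 matched APAP while the other AMSC libraries lay near or under the lowest NC value. It rose after APAP by 0.72 (SE 0.17, limma adjusted p = 0.0206), a call lost without NC replicate 2 (0.63, adjusted p 0.0851) or NC replicate 3 (0.72, adjusted p 0.053) in limma fits that ran from 0.0159 to 0.0851 over all alternatives. Rpl9-ps6 also lost the call after TPM and with all genes above 0. With copies added, its reads counted to Rpl9, which did not pass after APAP by limma. Its log2 fold change ran from 0.438 to 0.813 over the alternatives. Its sequence has 1 mismatch in 576 bases to Rpl9, a large subunit protein, which held 93.9% to 96.7% of the pair's reads in every library. Rpl9 stood at 52.3, 56.2 and 62.6 FPKM in NC, 63.01, 72.2 and 95.2 FPKM in APAP, and 77.3, 55.6 and 67.2 FPKM in AMSC, APAP above NC without overlap, and passed there without APAP replicate 1 (0.54, limma adjusted p = 0.0456) and under replicate blocks (0.41, limma adjusted p = 0.045), with 0.045 to 0.649 over the alternatives. Of the other copies, Rpl27-ps3 had 0.61, −0.32 and 0.28 and Rpl10-ps3 0.50, −0.25 and 0.25, none passing. In APAP against NC, Rpl27-ps3 passed without APAP replicate 1 (0.89, limma adjusted p = 0.0392) and under replicate blocks (0.61, limma adjusted p = 0.0116), and Rpl10-ps3 without APAP replicate 2 (0.79, limma adjusted p = 0.0452), with 0.0116 to 0.437 and 0.0452 to 0.447 over the alternatives. Rpl10 held 99.3% to 99.9% of the summed reads of Rpl10 and Rpl10-ps3. All 4 copies tested were above 0 in APAP against NC, at a median of 0.62, and below 0 in AMSC against APAP, at a median of −0.45.

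Starts of the family were read for what the symbol rule did not use. Of the 94 members, 66 matched a RefSeq promoter by symbol. A run of at least 8 C or T within 5 bases of the start was found in 24 of them (36.4%), beside 3068 of 27025 promoters of all genes (11.4%), and a run of at least 10 in 27.3% beside 6%. The 23 tested members with a run of at least 8 had median log2 fold changes of 0.31, −0.07 and 0.22 in APAP against NC, AMSC against APAP and AMSC against NC, and the 37 with a shorter run 0.26, −0.11 and 0.20, so the sets lay close together. The split goes by annotated starts, and some members in the second set, such as Rpl11 and Rpl26, hold long runs further downstream. It therefore need not separate mRNAs with a TOP motif from others. The windows of 5 members are shown to set genes that passed beside Rps6, a gene that did not, chosen after their values were seen. They run from 30 bases before to 30 after the start in GRCm38.p6, and capitals mark the longest run of C and T near it: Rps6 at chr4:86857338-86857397 (minus strand), Rps9 at chr7:3704011-3704070 (plus), Rpl22l1 at chr3:28805478-28805537 (plus), Rpl10a at chr17:28328441-28328500 (plus) and Rpl7l1 at chr17:46782627-46782686 (minus). Rps6 and Rpl22l1 had a run of 10, Rps9 of 9, Rpl10a of 7, and Rpl7l1, the member of these 5 that fell, a single C. Rps27rt, which also fell after APAP, had a run of 6.
Rps6: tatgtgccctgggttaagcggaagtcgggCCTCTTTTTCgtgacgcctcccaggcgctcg
Rps9: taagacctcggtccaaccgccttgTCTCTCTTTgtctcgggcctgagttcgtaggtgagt
Rpl22l1: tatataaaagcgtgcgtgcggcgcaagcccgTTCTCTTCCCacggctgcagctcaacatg
Rpl10a: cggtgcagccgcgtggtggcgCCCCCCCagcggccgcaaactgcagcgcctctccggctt
Rpl7l1: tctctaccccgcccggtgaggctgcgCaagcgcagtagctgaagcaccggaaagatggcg

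Fau and Rack1 encode ribosomal proteins outside the symbol rule. Fau, made as a fusion with a ubiquitin-like protein, stood at 289, 328 and 339.9 FPKM in NC, 293, 410.0 and 562 FPKM in APAP, and 450.4, 327 and 386 FPKM in AMSC. It was lowest among APAP libraries in replicate 1 and highest of all in replicate 3, and its log2 fold changes were 0.35, −0.08 and 0.27 in APAP against NC, AMSC against APAP and AMSC against NC, none passing. Without APAP replicate 1, Fau passed in APAP against NC, at 0.59 and a limma adjusted p of 0.0433, where all libraries gave 0.293 and the alternatives ran from 0.0433 to 0.884. Rack1, a scaffold on the small subunit head, stood at 60.2, 63.7 and 68.5 FPKM in NC, 75.7, 75.2 and 89.97 FPKM in APAP, and 80.1, 69.99 and 80.2 FPKM in AMSC. Its APAP values lay above all NC values, and log2 fold changes of 0.32, −0.06 and 0.25 did not pass.

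Other mRNAs with a TOP motif had a larger share of higher calls than the ribosomal protein genes after APAP and in AMSC against NC on the deposited scale, a difference that was not tested. Of 21 tested, 8 rose after APAP (38.1%, against the 12.8% of all genes given above), at a median of 0.32, and 7 rose in AMSC against NC (33.3%, against 14.1%), at a median of 0.29. Eef1a1, which brings tRNA to the ribosome, stood at 1477, 1517 and 1634 FPKM in NC, 2224, 2133 and 2207 FPKM in APAP, and 1995, 1924 and 2147 FPKM in AMSC, and rose by 0.51 after APAP (SE 0.12, limma adjusted p = 0.0192), a call lost without NC replicate 1 (0.0971), NC replicate 2 (0.0678) or APAP replicate 2 (0.0625) and running from 0.00728 to 0.345 over the alternatives. Eef2, which moves the ribosome along, rose by 0.68 (SE 0.14, limma adjusted p = 0.011, 0.00404 to 0.0929 over the alternatives) and kept its call without each library. The count of 8 was 3 without NC replicate 1 or NC replicate 2, 4 without APAP replicate 2, 1 after TPM (7.66% of all genes) and 4 after quantile normalization. The count of 7 was 2 when NC replicate 1 was left out, 4 without NC replicate 2 or NC replicate 3, 3 without AMSC replicate 2 or AMSC replicate 4, and 2 after TPM (8.69% of all genes). Against APAP, none of the 21 passed in AMSC by limma (1 was lower at an unadjusted p under 0.05, 0 by voom). Pabpc4 had the largest rise after APAP, by 0.84 (SE 0.16, limma adjusted p = 0.00913, 0.00244 to 0.0474), and kept its call without each library. Among 10 tested hosts of small nucleolar RNAs, which are spliced from TOP transcripts, 5 rose after APAP (against 12.8% of all genes) and 9 in AMSC against NC (against 14.1%). Snhg5 rose most, by 1.78 (SE 0.20, limma adjusted p = 0.00111, 0.000663 to 0.0193 over the alternatives) and 1.56 (SE 0.22, limma adjusted p = 0.00196, 0.000676 to 0.0359), and kept both calls without each library. The first count was 3 without NC replicate 1, NC replicate 2 or APAP replicate 2 and 10 without APAP replicate 1. Leaving out NC replicate 1, NC replicate 2 or AMSC replicate 4 gave 4, 3 and 5 in place of 9.

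Ribosome biogenesis factors, which assemble the subunits in the nucleolus, had calls in both directions. Of 91 tested, 3 rose (against 12.8% of all genes) and 11 fell (12.1%, against 13.1%) after APAP at a median of −0.10, 3 rose in AMSC against APAP at 0.24, and 21 rose in AMSC against NC at 0.19 (23.1%, against 14.1% of all genes). The largest changes were rises: Zfp622, a late assembly factor of the large subunit, rose by 1.26 after APAP (SE 0.14, limma adjusted p = 0.000888, 0.000389 to 0.0122 over the alternatives) and by 1.02 in AMSC against NC (SE 0.15, limma adjusted p = 0.00228, 0.000729 to 0.0375). Rcl1, which works in small subunit assembly, rose by 1.01 (SE 0.16, limma adjusted p = 0.00372, 0.00219 to 0.0254) and 1.04 (SE 0.18, limma adjusted p = 0.00476, 0.00226 to 0.0539). Gnl3 and Rrs1 rose in AMSC against NC by 0.94 (SE 0.11, limma adjusted p = 0.00063, 0.000269 to 0.0323) and 0.90 (SE 0.10, limma adjusted p = 0.000717, 0.000352 to 0.0494), and all of these calls held without each library. Rrp12 fell after APAP by 0.67 (SE 0.18, limma adjusted p = 0.03), a call lost without NC replicate 1 (0.0963), NC replicate 2 (0.112) or APAP replicate 3 (0.0816), with 0.00856 to 0.113 over the alternatives. Nop2, an rRNA methyltransferase of the large subunit, had 11.4 ± 1.62, 5.91 ± 0.842 and 10.6 ± 1.89 FPKM in NC, APAP and AMSC (SD, n = 3). It fell after APAP by 0.84 (SE 0.15, limma adjusted p = 0.00647, 0.0018 to 0.0351 over the alternatives) and rose in AMSC against APAP by 0.74 (SE 0.16, limma adjusted p = 0.049, 0.0215 to 0.193). Ltv1, a small subunit assembly factor, rose in AMSC against APAP by 0.71 (SE 0.12, limma adjusted p = 0.0267, 0.0077 to 0.209), and so did Noc4l by 0.54 (SE 0.11, limma adjusted p = 0.0418, 0.0113 to 0.263). Those 3 calls were lost in most fits with 1 library fewer, although over all alternatives the log2 fold change stayed at 0.62 to 0.89 for Nop2, 0.64 to 0.85 for Ltv1 and 0.51 to 0.68 for Noc4l. Without APAP replicate 1 only Ltv1 passed, and without APAP replicate 2, APAP replicate 3 or any AMSC replicate the limma count was 0, though 29 of the 91 were higher at an unadjusted p under 0.05 and 3 by voom with all libraries in. Higher calls over all genes fell too in these fits, from 1.64% to between 0.42% and 1.35%. The 11 that fell after APAP were 4 without NC replicate 1, 1 without NC replicate 2, 7 without APAP replicate 2 or APAP replicate 3, and 36 after TPM (which made 30.29% of all genes lower), and the 3 that rose were 12 without APAP replicate 1. The 21 in AMSC against NC were 12 without NC replicate 1, 11 after TPM (8.69% of all genes), and 12 to 18 over all libraries left out. None fell there by limma (3 at an unadjusted p under 0.05, 1 by voom), against 1 without AMSC replicate 3.

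Mitochondrial ribosomal proteins, which serve the separate ribosome of mitochondria, had a median on the other side of that of all genes than their cytosolic counterparts. Of 77 tested, 20 fell after APAP (26%, against 13.1% of all genes) at a median of −0.27, and 10 fell in AMSC against NC (13%, against 11.9%) at −0.12. None rose by limma in either comparison (1 was higher at an unadjusted p under 0.05 in each, 0 by voom), although 1 rose in AMSC against NC without AMSC replicate 3 and 1 after APAP under replicate blocks. Mrps27 fell after APAP by 0.92 (SE 0.16, limma adjusted p = 0.00688, 0.00227 to 0.0417 over the alternatives) and Mrps2 by 0.88 (SE 0.14, limma adjusted p = 0.00369, 0.00137 to 0.0232), both also without each library in turn. Mrpl34 fell most in AMSC against NC, by 0.75 (SE 0.15, limma adjusted p = 0.00783, 0.00223 to 0.056 over the alternatives), and kept that call without each library. The 20 were 8 without NC replicate 1 or NC replicate 2 (6.74% and 6.55% of all genes), 13 without NC replicate 3 (11.68%) and 9 without APAP replicate 2 (8.12%). They were 52 after TPM, which made 30.29% of all genes lower. The 10 were 5 without NC replicate 1 (7.22% of all genes), 6 without NC replicate 3 or AMSC replicate 4 (11.5% and 8.03%), and 31 after TPM (22.26% of all genes). AMSC against APAP had a median of 0.11, with 53 of the 77 above 0 and none passing by limma (12 higher and 1 lower at an unadjusted p under 0.05, 0 by voom).

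Pseudogenes of ribosomal protein genes were mostly too low to test: 62 of 290 were tested. After APAP 3 rose (4.8%, against 12.8% of all genes) and 1 fell (1.6%, against 13.1%), at a median of 0.32, and in AMSC against NC 8 rose (12.9%, against 14.1%) and 1 fell (1.6%, against 11.9%), at a median of 0.26, whereas none passed in AMSC against APAP by limma (4 higher and 2 lower at an unadjusted p under 0.05, 0 by voom). The 3 were 0 without NC replicate 1, NC replicate 2 or APAP replicate 3, 1 without APAP replicate 2, 13 without APAP replicate 1 and 0 after TPM. The 1 that fell after APAP was 0 without NC replicate 2 or NC replicate 3. By voom 1 rose after APAP and 2 in AMSC against NC. The 8 were 4 without AMSC replicate 2 and 5 without AMSC replicate 3 or after TPM, and without APAP replicate 1 a single pseudogene was lower in AMSC against APAP. Initiation factors, of which 36 were tested, had 5 higher and 5 lower after APAP (13.9% each, against 12.8% and 13.1%) and 9 higher in AMSC against NC (25%, against 14.1%), with none passing in AMSC against APAP by limma (3 higher at an unadjusted p under 0.05, 1 by voom). Those 5 higher were 2 without NC replicate 1, NC replicate 2 or APAP replicate 2. The 5 lower were 1 without NC replicate 1, 0 without NC replicate 2 and 3 without APAP replicate 2 or APAP replicate 3, and the 9 were 4 without NC replicate 1, NC replicate 2, AMSC replicate 2 or AMSC replicate 4.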

How the data were processed

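Total RNA of 9 livers was sequenced after a SMARTER mRNA-Seq preparation. The authors deposited FPKM per gene with gene length, on GRCm38 (mm10) according to the submitters' processing notes, and used DESeq2 for their own differential analysis. Aligner, counter, strand of counting and the treatment of reads that match several loci are not given in the sources used here. FPKM divided by the smallest step of each library gave whole reads within 0.1 of a whole number for 100.0% of values above 0, which gave the depth and the input for voom.

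Genes averaging 1 FPKM or more (9699 of 54532, of which 29683 are 0 in every library) were fitted as log2(FPKM + 1) with limma 3.58.1 (lmFit, eBayes with trend) in R 4.3.3, with the libraries of the 2 groups compared only, and p-values adjusted by Benjamini-Hochberg over all genes tested. A threshold of 0.05 was used, with an absolute log2 fold change of at least 1 for the stricter rule. On simulated data of 9699 genes with 200 changed, the fit recovered 179, all with the right sign, and called 11 others. Those 200 were given log2 fold changes larger than the stricter rule asks, with noise independent between genes. Smaller changes, and libraries in which many genes shift together, were not simulated, so this recovery does not carry over to them. Other steps used matplotlib 3.10.9, numpy 2.4.6 and pandas 2.3.3 under Python 3.11.15. Near-identical copies were transcripts of GENCODE M21 that blastn 2.17.0 aligned to a member's coding sequence at 95% identity or more over at least 80% of it, and overlaps used the same annotation. Promoters were RefSeq's, 250 bases before to 50 after the start.

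Members and lists were chosen with earlier results of these data known. Named genes were, per comparison, the 5 tested members that rose most and the 5 that fell most, passing or not, every member past the stricter rule, the 3 highest and 3 lowest by mean, all paralogs and stalk genes, a set chosen by function (among them Rpl5, Rpl11, Rps6, Rps19, Rps3, Rpl10, Rpl13a, Rpsa, Rps27a, Rps14, Rpl23, with Fau, Rack1 and Mdm2), and, of each context list, the 4 genes with the largest change among those passing, of which the text gives only some.

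APAP and NC libraries with the same replicate number, each taken minus its group mean, correlated at 0.213, 0.16 and 0.378 across genes, all over 0.1. Same-numbered libraries also had slopes with gene length in the same direction, so these correlations do not show that the mice were paired. Labels give no pairing, and the title of NC replicate 3 carries the number 1, so its number rests on the description.

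Alternatives were a pseudocount of 0.1, a minimum mean of 5 FPKM, all genes above 0, protein-coding genes only, rescaling to TPM, replicate blocks, quantile normalization, a single fit of all 9 libraries, no trend, voom on recovered reads, each library left out in turn and, chosen after seeing the data, the reads of near-identical copies added to the gene.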

Additional observations from a re-analysis of the deposited data

How the results depend on the processing

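Members that rose after APAP numbered 4, and their count was 0 with all genes above 0 in the limma fit (17 past an unadjusted p of 0.05, 7 by voom), 1 after TPM, 2 after quantile normalization, 7 with all 9 libraries in a single fit, 16 with replicate blocks, 7 by voom and 2 with copies added, the alternative chosen after seeing the data. The 2 that fell were 1 with all genes above 0 and 1 with copies added. The median of 0.282 was −0.0205 after TPM. In AMSC against APAP, the 1 member that rose was 0 by limma with a pseudocount of 0.1, a minimum of 5 FPKM, all genes above 0 or copies added (5, 5, 4 and 1 past an unadjusted p of 0.05, 1 by voom), and the 0 that fell were 1 after quantile normalization, with protein-coding genes only and by voom. In AMSC against NC, the 3 that rose were 0 by limma with all genes above 0 (16 past an unadjusted p of 0.05, 3 by voom), 1 after TPM and 0 with replicate blocks (1 past an unadjusted p of 0.05), and the 0 that fell were 1 after TPM and 1 after quantile normalization. The median of 0.213 was 0.0019 after TPM and 0.0452 after quantile normalization. Testing all genes above 0 raises the number tested to 24849. Other causes were not tested.

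With each library left out in turn, members higher after APAP ran from 1 to 22, lower from 0 to 2, and the median from 0.0969 to 0.424. In AMSC against APAP they ran from 0 to 1 and 0 to 0, with a median of −0.231 to 0.0858, and in AMSC against NC from 1 to 10 and 0 to 0, with a median of 0.103 to 0.296. Over all genes in the same fits, higher calls ran from 7.4% to 14.68% and lower calls from 6.55% to 13.66% after APAP. In AMSC against APAP these were 0.42% to 1.35% and 0.58% to 2.42%, and in AMSC against NC 9.62% to 12.97% and 7.22% to 11.5%.

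AMSC libraries share only numbers 2 and 3 with the others. Deviations correlated at −0.104 and −0.293 with APAP and at −0.199 and −0.309 with NC, so numbers do not pair these samples, and the replicate block gave 1 higher and 0 lower in AMSC against APAP and 0 and 0 in AMSC against NC.

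Of 2144 pairs of an uncalled named gene and an alternative, 48 passed, and of 714 such pairs of a context list count, 168 moved by over 1.5 times. Of 3954 values, 1 changed the sign of a call: Eef1a1 in AMSC against NC, at −0.0497 after quantile normalization beside 0.39 in the deposited values. Depth limits members with few reads: Rpl3l had 11 reads and Rpl39l 2 over all libraries, too few for a difference to be detectable.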
